A study of Mus musculus with 6 samples.

Results

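Integrins are receptors made of 1 α and 1 β chain that tie cells to the extracellular matrix, and laminins are trimers of an α, a β and a γ chain that form the scaffold of basement membranes. The genes of both families were followed in tibialis anterior (TA) muscles injected with a vector for the transcription factor Prox1. They comprised the genes analysed here whose symbol begins with Itga, is Itgb1 to Itgb8, or is Lama, Lamb or Lamc with 1 digit. This gave 34 genes of 19057, of which 25 encode integrin chains and 9 encode laminin chains, with 81 probes between them.

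RNA was profiled from 3 TA muscles injected with an adeno-associated virus of serotype AAV8 that carries Prox1 (AAV8-Prox1) and from 3 TA muscles given AAV8 with nuclear mCherry (AAV8-mCherry control). All muscles came from male C57Bl/6J mice labelled as 3 months old, with 1 Illumina BeadChip array per muscle. According to the study's methods the control vector went into the opposite leg, but the labels do not tie muscles to a mouse, and the promoter of the vectors is not given in the sources used here. Values are log2 signals that the authors had quantile-normalized, and for a gene with several probes the brightest one over the 6 arrays was taken.

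Quantile normalization makes the signal distributions of arrays alike, so their medians and counts are no check of quality. Every array had a median log2 signal of 6.61. A log2 signal of 7 is taken here as the limit above background, and 10667 to 10672 of 45281 probes per array reached it. All 10 muscle fibre markers, such as Acta1 and Ckm, were above it. Both Prox1 probes read 6.42 to 6.62 in all arrays, at background, so they give no check of the labels. Across bright probes, arrays correlated at 0.990 to 0.994 within a group and at 0.967 to 0.974 between groups. Groups were compared with limma over all probes, with Benjamini-Hochberg adjusted p values and a threshold of 0.05. With 3 muscles per group the smallest two-sided p of an exact permutation test is 0.1. In a whole muscle, fewer cells of a type and less RNA per cell cannot be told apart.

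In a mature muscle fibre the main integrin joins the α chain of Itga7 to the β chain of Itgb1 and binds the laminin built from Lama2, Lamb1 and Lamc1. Loss of LAMA2 or ITGA7 in humans causes congenital muscle disease. Lamb2 marks the laminins of the neuromuscular and myotendinous junctions, and Lama4 and Lama5 serve vessels and the synaptic basal lamina. Other integrins in a whole muscle belong to vessels, fibroblasts and nerve, and those with the β chain of Itgb2 or Itgb7 belong to leukocytes.

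By brightest probe, none of the genes for the fibre's own laminin receptor and laminins passed the test. A dimmer Itga7 probe was lower (log2 fold change -0.41, adjusted p = 0.0123 from limma), and Lamb1 was at background. Itgb6, a gene best known from epithelia, was 2.20-fold higher in AAV8-Prox1 muscles. Itga9 was also higher and Lama5 lower, both by less and with calls that hung on single arrays. Of the 34 genes, 3 passed the adjusted p of 0.05 in limma, 2 higher and 1 lower. That is 8.82%, against 9.44% of all genes on the array (5.23% higher and 4.21% lower). At least 1 group mean reached a log2 signal of 7 for 16 of the 34 genes, 12 integrins and 4 laminins. All 3 calls lay among them, which is 18.8% against 24.4% of the 7010 such genes on the array (13.2% higher and 11.2% lower). By probe, 6 of the 81 passed, against 6.02% of all probes. The groups did not overlap for 6 of the 16 (37.5%, against 43.8% of such genes on the array). The median log2 fold change was -0.01 over the 34 genes and 0.00 over all genes. The 13 genes above background that did not pass had log2 fold changes of -0.28 to 0.15 (adjusted p 0.0569 to 0.983). The 18 at background read under 7 in all 6 arrays, with log2 fold changes of -0.17 to 0.06 (adjusted p 0.195 to 0.98).

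**Figure D1:**
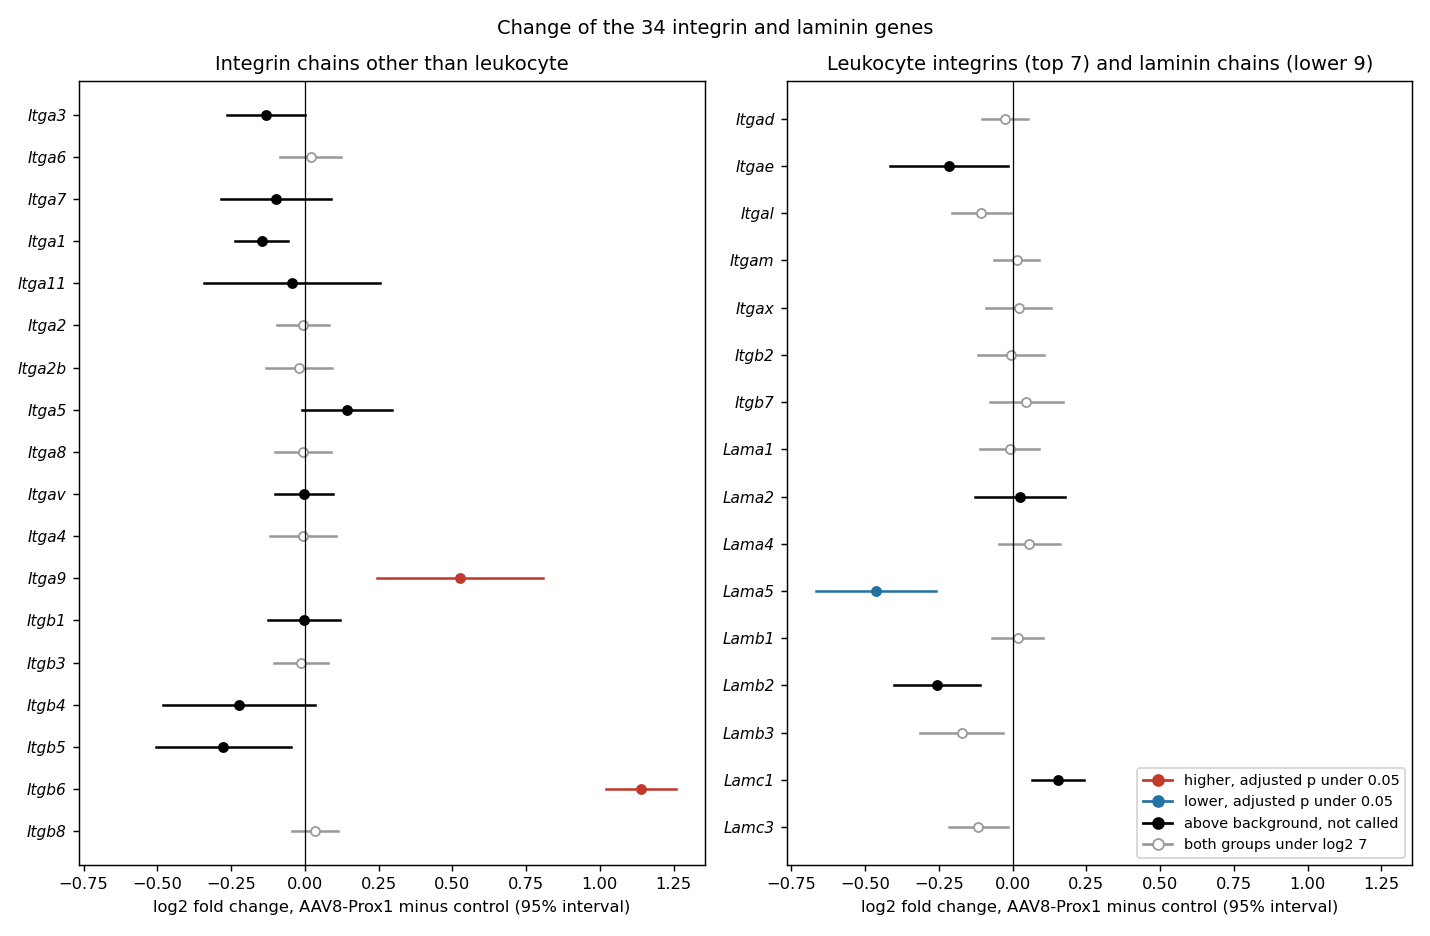
Log2 fold changes (x axis, AAV8-Prox1 minus control, limma) of the 34 integrin and laminin genes (rows) with 95% intervals from 3 muscles per group. Itgb6 at 1.14 and Itga9 at 0.53 lie to the right, Lama5 at -0.46 lies to the left, and the open symbols of the 18 genes under a log2 signal of 7 in both groups lie between -0.17 and 0.06.

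Promoters of the 3 genes that passed are shown, since they are the members the comparison turns on. Each runs from 250 bases before to 50 bases after an annotated RefSeq start in GRCm38.p6, read along the gene's strand, and 22 of the 34 genes matched an entry of that table. Capitals mark CAGCTG, the E-box preferred by myogenic factors such as MyoD. TGGAAA, a core NFAT site, was searched as well, both on either strand, and the motifs can share the bases TG, which did not occur in these windows. Of 32817 promoters of this length, 16.3% hold CAGCTG and 21.4% hold TGGAAA. Itgb6 has 2 annotated starts, and the array does not tell which of them was used.
Itgb6, first start (chr2:60722554-60722853, minus strand): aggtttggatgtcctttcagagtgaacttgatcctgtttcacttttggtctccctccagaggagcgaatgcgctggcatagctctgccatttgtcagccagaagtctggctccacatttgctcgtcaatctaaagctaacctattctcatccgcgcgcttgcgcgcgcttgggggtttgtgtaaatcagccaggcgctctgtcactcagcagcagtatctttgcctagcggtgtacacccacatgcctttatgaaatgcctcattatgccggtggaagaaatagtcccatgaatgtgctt
Itgb6, second start (chr2:60673644-60673943, minus strand): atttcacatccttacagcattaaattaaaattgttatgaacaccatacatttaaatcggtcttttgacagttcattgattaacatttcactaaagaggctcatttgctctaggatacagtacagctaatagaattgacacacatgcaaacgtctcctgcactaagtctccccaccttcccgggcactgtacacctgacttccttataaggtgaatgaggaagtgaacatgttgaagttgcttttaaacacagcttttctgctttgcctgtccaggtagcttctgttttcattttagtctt
Itga9 (chr9:118711442-118711741, plus strand): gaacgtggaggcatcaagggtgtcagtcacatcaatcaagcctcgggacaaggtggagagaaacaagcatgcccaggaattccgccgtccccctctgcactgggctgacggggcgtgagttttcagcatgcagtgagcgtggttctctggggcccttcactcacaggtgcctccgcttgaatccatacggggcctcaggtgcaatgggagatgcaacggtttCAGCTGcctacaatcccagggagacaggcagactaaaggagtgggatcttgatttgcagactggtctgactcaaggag
Lama5 (chr2:180225810-180226109, minus strand): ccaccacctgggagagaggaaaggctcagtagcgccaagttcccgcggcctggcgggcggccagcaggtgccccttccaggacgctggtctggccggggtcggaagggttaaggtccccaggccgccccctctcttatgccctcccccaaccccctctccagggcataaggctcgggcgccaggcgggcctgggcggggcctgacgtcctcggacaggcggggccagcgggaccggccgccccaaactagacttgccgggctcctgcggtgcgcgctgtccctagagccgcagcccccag
Only the Itga9 window held a match, 1 CAGCTG, and no match says only that these letters are not in the window. The GC content was 50.3% and 38.3% for the Itgb6 starts, 56.7% for Itga9 and 72.7% for Lama5, and the median of all promoters was 52.7%.

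Itgb6 encodes the β6 chain, which pairs only with the αv chain of Itgav. The receptor binds the RGD motif of fibronectin and of the latency peptide of TGF-β, and is known in epithelia for releasing active TGF-β. Its brightest probe gave log2 signals of 11.91, 11.88 and 11.95 in AAV8-Prox1 muscles, against 10.69, 10.76 and 10.87 in control muscles. Means were 11.91 ± 0.04 in AAV8-Prox1 muscles and 10.77 ± 0.09 in controls (SD, n = 3 each). The groups were widely separated and the 3 AAV8-Prox1 muscles were almost equal. The log2 fold change was 1.14 (standard error 0.05, 95% interval 1.02 to 1.26, adjusted p = 6.07e-05 from limma), which ranked Itgb6 at 21 of 19057 genes by p. By size it ranked at 58 among the 7010 genes above background, 76 of which were called higher by at least 1 on the log2 scale.

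Of the other 3 Itgb6 probes, 2 were above background and rose as well. The second gave 8.98, 8.98 and 9.05 with AAV8-Prox1 and 8.19, 8.15 and 8.10 in controls (log2 fold change 0.86, adjusted p = 7.24e-05). The third gave 8.59, 8.42 and 8.49 with AAV8-Prox1 and 7.68, 7.79 and 7.92 in controls (log2 fold change 0.70, adjusted p = 0.00143). These 3 probes were designed on the gene's RefSeq transcript, and each read higher in every AAV8-Prox1 muscle than in any control. The fourth, designed on another record, was at background, with 6.68 to 6.74 with AAV8-Prox1 and 6.59 to 6.66 in controls (adjusted p = 0.333). Averaging all 4 probes gave 0.70 (adjusted p = 0.000138). Leaving out any 1 array left a log2 fold change of 1.10 to 1.19, with an adjusted p of 0.00031 to 0.00061.

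All 7 markers of epithelium in a list written after the Itgb6 value was seen, Epcam, Cdh1 and 5 keratins, were at background in both groups, so they cannot show a change. Their summed linear signal was 675 to 684 with AAV8-Prox1 and 680 to 695 in controls. Itgav, the only known partner of the β6 chain, gave 7.06, 7.09 and 7.09 with AAV8-Prox1 and 7.03, 7.16 and 7.06 in controls. The groups overlapped just above the limit (log2 fold change 0.00, 95% interval -0.10 to 0.10, adjusted p = 0.983), and the other 4 Itgav probes were below it. Near background a change can be understated.

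**Figure D2:**
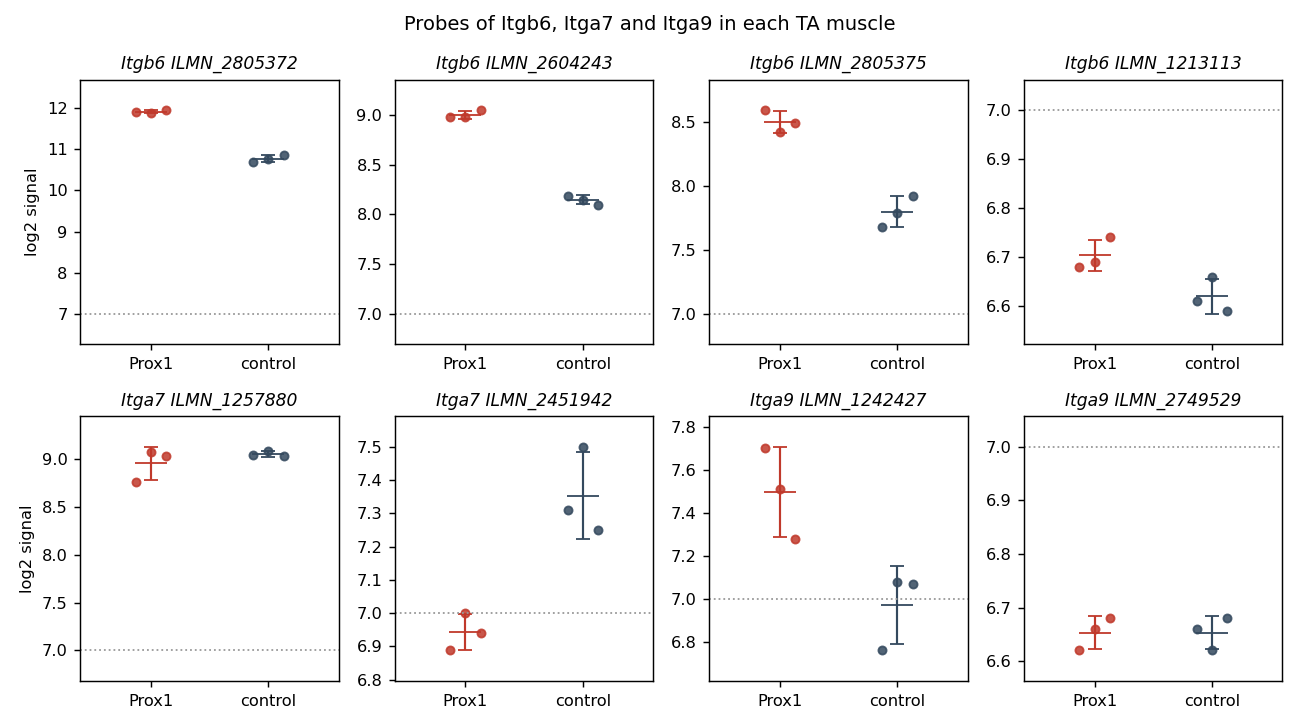
Log2 signal (y axis) of each Itgb6 and Itga7 probe and of 2 Itga9 probes in AAV8-Prox1 (red) and control (blue) TA muscles. Points are muscles, bars are mean ± SD (n = 3), and the dotted line is a log2 signal of 7. The 3 bright Itgb6 probes separate the groups, while the probes of Itga7 and of Itga9 differ among themselves.

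None of the other β chains passed the threshold. Itgb5, which joins αv in a vitronectin receptor, gave 7.82, 7.71 and 7.52 with AAV8-Prox1 and 7.79, 7.98 and 8.11 in controls (log2 fold change -0.28, 95% interval -0.51 to -0.05, adjusted p = 0.201). Itgb3 and Itgb8, the remaining αv partners apart from Itgb1, were at background in all 6 arrays. Itgb4, the β chain of hemidesmosomes and of Schwann and perineurial cells, gave 8.08, 7.62 and 7.85 with AAV8-Prox1 and 7.98, 8.06 and 8.18 in controls (log2 fold change -0.22, adjusted p = 0.406). The second Itgb4 probe, also above background, gave a change of 0.00 (95% interval -0.19 to 0.19, adjusted p = 0.995).

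Itga9 encodes the α9 chain, a partner of Itgb1 that binds tenascin C, osteopontin and VCAM-1 and is needed for lymphatic valves in mice. It gave 7.70, 7.51 and 7.28 with AAV8-Prox1, against 6.76, 7.08 and 7.07 in controls. Means were 7.5 ± 0.21 with AAV8-Prox1 and 6.97 ± 0.18 in controls (SD, n = 3 each). The groups did not overlap, but control replicate 1 was under the limit and the other 2 controls were just above it. The control mean was under the limit, so no fold is given, and the log2 fold change was 0.53 (standard error 0.12, 95% interval 0.24 to 0.81, adjusted p = 0.0477 from limma). The call passed in 1 of the 6 fits that leave out 1 array, that without AAV8-Prox1 replicate 3 (0.0268). It failed without AAV8-Prox1 replicate 1 (0.121) or 2 (0.148) and without control replicate 1 (0.104), 2 (0.0713) or 3 (0.0892). With the replicate number as a block in the fit it failed as well (0.155). The record behind this probe is not given. The other 2 Itga9 probes were at background in all arrays, with log2 fold changes of 0.00 and -0.04. The first of these was the only Itga9 probe designed on the RefSeq transcript, so the call rests on a probe of unstated design. Lymphatic vessels were not examined here. Itga4, the chain most like Itga9, was at background with all 6 of its probes.

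Lama5 encodes the α5 laminin chain of vessel walls and of the synaptic basal lamina. Its probe gave 7.35, 7.67 and 7.57 with AAV8-Prox1 and 8.06, 7.87 and 8.05 in controls. Means were 7.53 ± 0.16 with AAV8-Prox1 and 7.99 ± 0.11 in controls (SD, n = 3 each). Every AAV8-Prox1 muscle lay below every control, and Lama5 was 1.38-fold lower (log2 fold change -0.46, standard error 0.09, 95% interval -0.67 to -0.26, adjusted p = 0.0223 from limma). The call failed without AAV8-Prox1 replicate 3 (adjusted p = 0.056), control replicate 1 (0.0706) or control replicate 3 (0.0836), and passed in the other 3 such fits. With the replicate number as a block in the fit it failed as well (0.0877). Of 12 endothelial markers, 4 were lower (Eng, Flt1, Robo4 and Tie1) and 8 did not pass, among them Tek at a log2 fold change of 0.00 and Kdr at background. All 4 were among the 11 above background, where 11.2% of all genes were lower. Their summed linear signal was 5943 to 6575 with AAV8-Prox1 and 7495 to 9100 in controls. This count was 1 to 4 when single arrays were left out. It was 1 without AAV8-Prox1 replicate 1, 2 without AAV8-Prox1 replicate 3 and 1 without control replicate 3. Of 9 mural cell markers, 7 were above background and 1 of these was lower, Mcam, against 11.2% of such genes on the array. The sum of the 9 was 5633 to 6626 with AAV8-Prox1 and 7041 to 7331 in controls. The brightest of them, Acta2, did not pass (adjusted p = 0.165 from limma). The part of these cells in the Lama5 value was not tested.

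By brightest probe, the set that serves the fibre itself, Itga7, Itgb1, Lama2, Lamb1, Lamb2 and Lamc1, held no gene that passed the threshold. Its log2 fold changes ran from -0.26 to 0.15, with a median of 0.01. Of the 10 muscle fibre markers measured beside it, 1 was higher (Des) and 4 were lower (Myh1, Myh4, Tnnt3 and Mylpf). Among the lower ones, Myh1, Myh4 and Tnnt3 are genes of fast fibres, and the study reports lower fast myosin genes with AAV8-Prox1. The other 5 markers did not pass, among them Acta1 and Ckm, with log2 fold changes of 0.07 and -0.04. All 10 were above background, where 13.2% of genes were higher and 11.2% were lower. The part of these markers in the values of the set was not tested. The plot of signals by muscle shows the groups side by side.

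**Figure D3:**
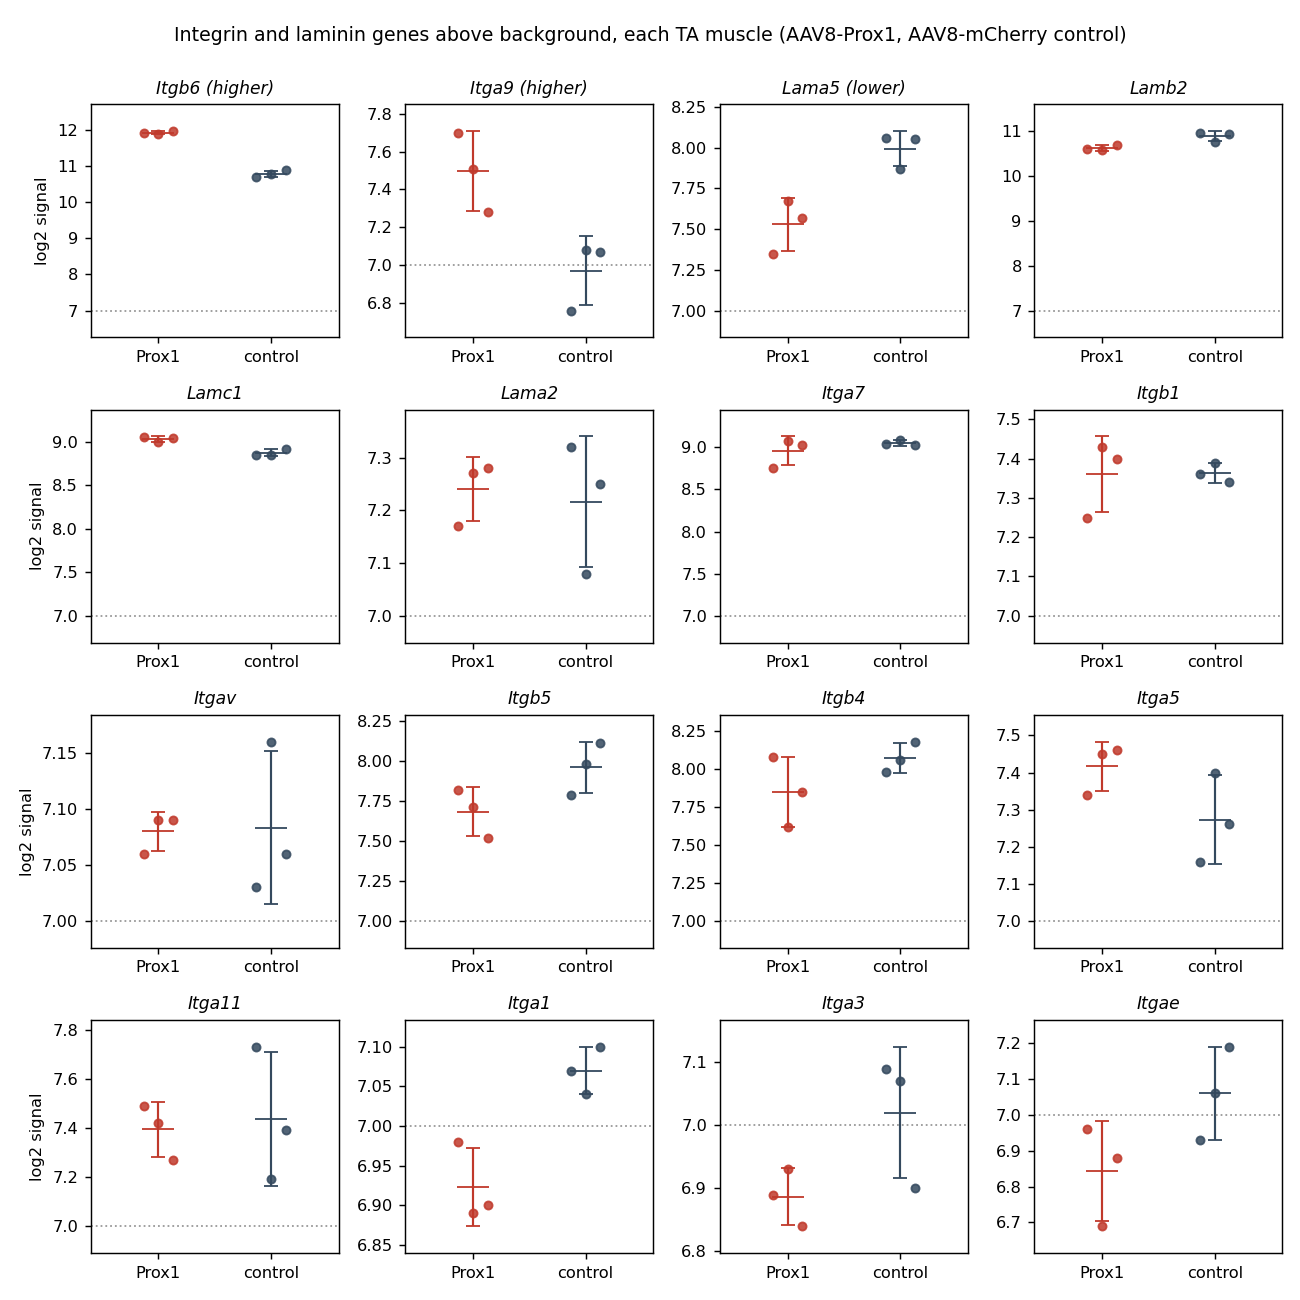
Log2 signal (y axis, scaled per panel) of the 16 integrin and laminin genes above background in each TA muscle. Red points on the left are AAV8-Prox1, blue points on the right are control, bars are mean ± SD (n = 3) and the dotted line is a log2 signal of 7. Itgb6 and Lama5 keep a clear gap between the groups, while Itgb1, Lama2 and Itgav overlap.

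Itga7, the α chain of the fibre's laminin receptor, gave 8.76, 9.08 and 9.03 with AAV8-Prox1 and 9.04, 9.09 and 9.03 in controls by its brightest probe. Only AAV8-Prox1 replicate 1 lay apart, below all other muscles (log2 fold change -0.10, 95% interval -0.28 to 0.09, adjusted p = 0.693). The second Itga7 probe, designed on a record other than the RefSeq transcript, gave 6.89, 7.0 and 6.94 with AAV8-Prox1 and 7.31, 7.5 and 7.25 in controls. Here the groups did not overlap, and the log2 fold change of -0.41 passed (95% interval -0.57 to -0.25, adjusted p = 0.0123), with AAV8-Prox1 muscles at the limit of detection. The mean of both probes gave -0.25, with an adjusted p of 0.0638 where all probes of every gene were averaged and 0.0449 where only probes at 7 or more were, an alternative added after the data were seen. Itga7 is spliced into several isoforms, and which of them each probe reads was not determined here.

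Itgb1, the β chain shared by most integrins of muscle, gave 7.25, 7.43 and 7.40 with AAV8-Prox1 and 7.36, 7.39 and 7.34 in controls. The values overlapped, with a log2 fold change of 0.00 (95% interval -0.12 to 0.12, adjusted p = 0.983). Its second probe gave a log2 fold change of -0.06 (95% interval -0.30 to 0.18, adjusted p = 0.887).

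Among the laminin chains of the fibre, Lama2 gave 7.17, 7.27 and 7.28 with AAV8-Prox1 and 7.32, 7.08 and 7.25 in controls (log2 fold change 0.02, 95% interval -0.13 to 0.18, adjusted p = 0.942). Lamc1, whose γ chain is common to most laminins, gave 9.05, 8.99 and 9.04 with AAV8-Prox1 and 8.85, 8.85 and 8.92 in controls. These groups were narrowly apart (log2 fold change 0.15, 95% interval 0.07 to 0.24, adjusted p = 0.0596), and the second Lamc1 probe overlapped (log2 fold change 0.07, adjusted p = 0.8). Lamb1 was at background, with 6.52, 6.59 and 6.50 with AAV8-Prox1 and 6.53, 6.50 and 6.53 in controls, so its single probe carries no measure of the β1 chain.

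Lamb2, the β chain of junctional laminins, gave 10.61, 10.59 and 10.70 with AAV8-Prox1 and 10.97, 10.76 and 10.94 in controls. All AAV8-Prox1 muscles lay below all controls, with a log2 fold change of -0.26 (standard error 0.06, 95% interval -0.40 to -0.11) that narrowly missed the threshold (adjusted p = 0.0569). Of the 6 fits that leave out 1 array it passed in 1, without control replicate 2 (log2 fold change -0.32, adjusted p = 0.0143), and in the other 5 the adjusted p was 0.0765 to 0.188. It also passed with probes of a gene averaged (0.0485) and with dim probes left out (0.0477). Lamb2 has 1 probe, so its values were the same there and only the other features fitted differed. It did not pass with trend and robust estimation (0.167). Of the other laminin chains, Lama1, Lama4, Lamb3 and Lamc3 were at background, with all arrays under a log2 signal of 7.

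Among the remaining integrin α chains, the collagen receptors Itga1 and Itga11, the fibronectin receptor Itga5 and the laminin receptor Itga3 were above background and did not pass. Itga5 gave 7.34, 7.45 and 7.46 with AAV8-Prox1 and 7.16, 7.40 and 7.26 in controls (log2 fold change 0.14, 95% interval -0.01 to 0.30, adjusted p = 0.359). Itga11, a chain of fibroblasts, gave 7.49, 7.42 and 7.27 with AAV8-Prox1 and 7.73, 7.19 and 7.39 in controls, a wide spread (log2 fold change -0.04, adjusted p = 0.946). Itga1, found on vessels and fibroblasts, gave 6.98, 6.89 and 6.90 with AAV8-Prox1 and 7.07, 7.04 and 7.10 in controls. Its groups were apart, on either side of the limit (log2 fold change -0.15, 95% interval -0.24 to -0.06, adjusted p = 0.082). Of 8 fibroblast markers 1 was higher, Lum (log2 fold change 0.81, adjusted p = 0.0173), against 5.23% of all genes. It was 1 of the 4 above background, against 13.2% of such genes. Lum did not pass without AAV8-Prox1 replicate 2 or 3. The summed linear signal of the 8 fibroblast markers was 5050 to 5947 with AAV8-Prox1 and 3267 to 4469 in controls. The brightest of them, Dcn, did not pass (adjusted p = 0.0695 from limma). The part of fibroblasts in the values of Itgb6, Itga9, Itga11 and Itga1 was not tested. Itga3 straddled the limit (log2 fold change -0.13, adjusted p = 0.313). Itga2, Itga2b, Itga6 and Itga8 were at background.

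Leukocyte integrins stayed at or near background. Itgb2, the β chain of the leukocyte-specific integrins, gave 6.64, 6.66 and 6.77 with AAV8-Prox1 and 6.66, 6.76 and 6.67 in controls. Itgam, its α partner on macrophages and neutrophils, gave 6.56, 6.57 and 6.61 with AAV8-Prox1 and 6.57, 6.55 and 6.58 in controls. The groups overlapped for both (adjusted p = 0.98 for Itgb2 and 0.933 for Itgam). Itgal, Itgax, Itgad and Itgb7 were also under a log2 signal of 7 in all arrays. The exception was Itgae, the α chain of intraepithelial T cells, with 6.96, 6.69 and 6.88 with AAV8-Prox1 and 6.93, 7.06 and 7.19 in controls (log2 fold change -0.22, adjusted p = 0.266). Its groups overlapped, and only 2 control muscles reached the limit.

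Markers of leukocytes were measured beside them. Of 12 macrophage markers, 3 were higher in AAV8-Prox1 muscles (Mrc1, C1qc and Cd14, the last with both groups under 7) and none was lower, against 5.23% of all genes higher. Above background were 5 of the 12, 2 of them higher, against 13.2% of such genes. The summed linear signal of the 12 was 3448 to 4274 with AAV8-Prox1 and 2195 to 3341 in controls, and the brightest of them, Lyz1, did not pass (adjusted p = 0.232 from limma). Without AAV8-Prox1 replicate 1, 2 or 3 the count was 1 each time, and without 1 control it was 2 to 4. Of these markers, the defining genes Adgre1, Csf1r and Cx3cr1 were at background. All 7 neutrophil markers and all 3 measured B cell markers were at background. So were 7 of 8 T cell markers, among them Cd3d, Cd3e and Cd8a. Cd8b1 read 9.83 to 10.58 over the arrays and was lower (log2 fold change -0.47, adjusted p = 0.0153). Only 1 of the 3 Cd8b1 probes had a mean at 7 or more, and the source of its signal was not tested. All 6 dendritic cell markers were at background, and 1 of them, Zbtb46, was called lower (log2 fold change -0.22, adjusted p = 0.0159). Of all genes 4.21% were lower, and of those above background 11.2%. Probes that read background in both groups cannot show whether the leukocyte integrins followed the macrophage markers.

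Of 19 genes that work with integrins at the adhesion site, 3 were higher and 1 was lower, against 9.44% of all genes called. These 4 were among the 15 above background, where 24.4% of all genes were called. The list holds talins, kindlins, the ILK complex and their relatives. Flnc, the muscle filamin that binds β tails and actin at Z-discs and myotendinous junctions, gave 14.56, 14.62 and 14.62 with AAV8-Prox1 and 13.20, 13.37 and 13.20 in controls (log2 fold change 1.34, 95% interval 1.22 to 1.47, adjusted p = 3.49e-05). The signal with AAV8-Prox1 is close to the highest of any gene here, where a change can be understated. Itgb1bp2, or melusin, a muscle protein that binds the β1 tail, went the other way. It gave 8.60, 9.33 and 9.01 with AAV8-Prox1 and 10.59, 10.64 and 10.44 in controls, and was 2.98-fold lower (log2 fold change -1.58, 95% interval -1.96 to -1.20, adjusted p = 0.00181).

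Ilk, the scaffold that links β tails to parvins, gave 10.27, 10.28 and 10.42 with AAV8-Prox1 and 9.87, 10.01 and 10.01 in controls (log2 fold change 0.36, adjusted p = 0.0113). With both Ilk probes averaged it was 0.19 and did not pass (adjusted p = 0.0634), a mean that includes 1 probe under the limit. Tln1, the talin that activates integrins, gave 7.17, 7.08 and 7.01 with AAV8-Prox1 and 6.77, 6.81 and 6.77 in controls, at least 1.06-fold higher (adjusted p = 0.00932). Tln2, the talin of mature fibres, had a log2 fold change of 0.03 (95% interval -0.17 to 0.22, adjusted p = 0.951). Flnc, Itgb1bp2, Ilk and Tln1 passed in all 6 fits that leave out 1 array.

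Of 12 partners of laminin in the basement membrane, 1 was higher and none was lower, against 9.44% of all genes called, and 11 were above background, where 24.4% were. Bcam, the Lutheran glycoprotein that serves as a receptor for the Lama5 chain, gave 8.02, 8.19 and 8.28 with AAV8-Prox1 and 7.74, 7.56 and 7.69 in controls. The groups were apart, and Bcam was 1.41-fold higher (log2 fold change 0.50, 95% interval 0.33 to 0.67, adjusted p = 0.00822). Only 1 of its 3 probes had a mean at 7 or more, and with all 3 averaged the log2 fold change was 0.17 (adjusted p = 0.0371 from limma). Agrin (Agrn), which gathers acetylcholine receptors at the synapse, gave 9.35, 9.40 and 9.41 with AAV8-Prox1 and 9.27, 9.11 and 9.29 in controls. Its groups were apart by little and it did not pass (log2 fold change 0.16, adjusted p = 0.16). Nidogen (Nid1), dystroglycan (Dag1) and perlecan (Hspg2) had log2 fold changes of 0.02, -0.16 and -0.25 and did not pass. The type IV collagen chains Col4a1 and Col4a2 had wide intervals, of -0.77 to 0.07 and -0.86 to 0.34 on the log2 scale.

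**Figure D4:**
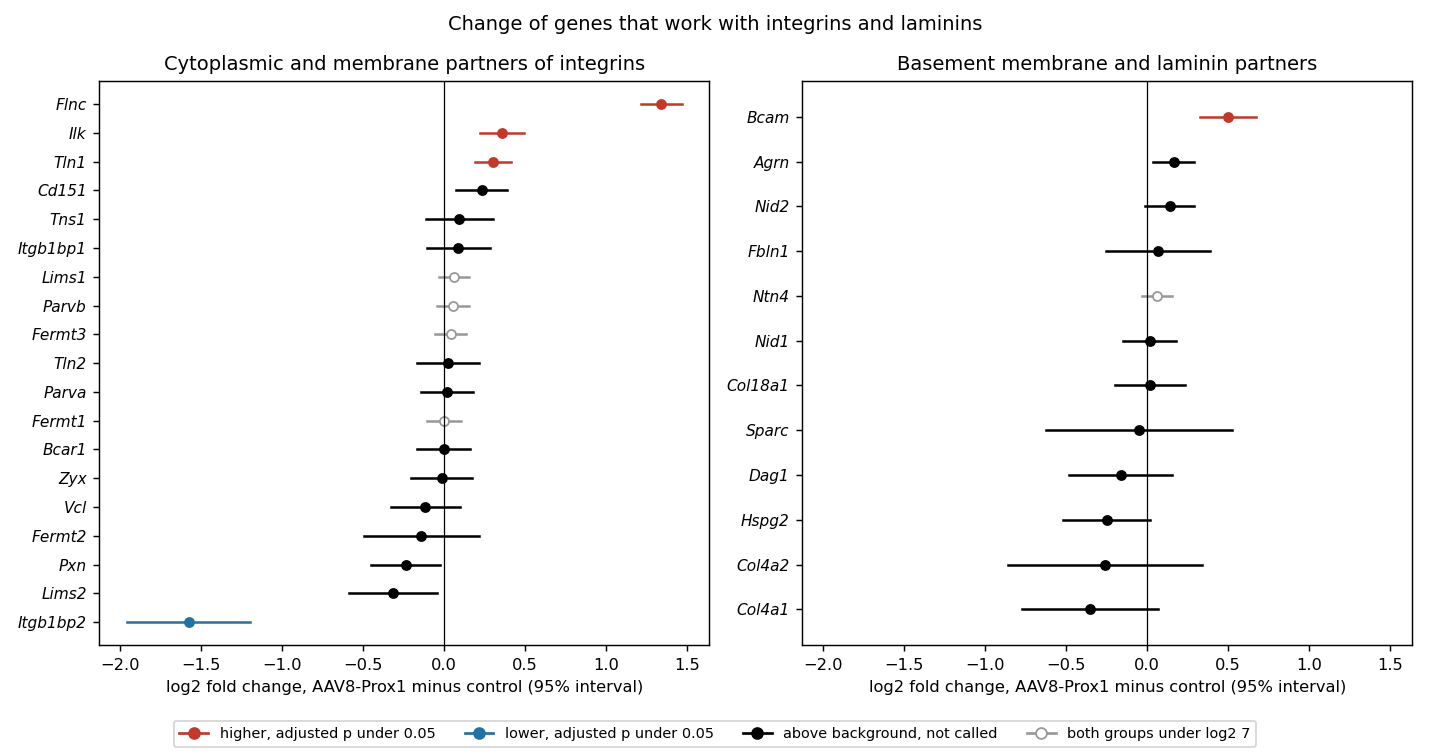
Log2 fold changes (x axis, AAV8-Prox1 minus control, limma) with 95% intervals for 19 partners of integrins (left) and 12 partners of laminins in the basement membrane (right), from 3 muscles per group. Flnc at 1.34 and Itgb1bp2 at -1.58 mark the 2 ends, and Bcam at 0.50 is the 1 basement membrane partner that passed.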

How the data were processed

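Gene expression was measured on Illumina Mouse WG-6 v2 arrays in 3 AAV8-Prox1 and 3 AAV8-mCherry control TA muscles. The deposited log2 values were made by the authors with GenomeStudio and, for quantile normalization, Chipster, and are rounded to 2 decimals. Whether background was corrected is not given in the sources used here. The 12 per-sample columns of a raw signal table could not be matched to samples and were left out. Probes were named from the platform annotation, and the symbols of all 81 member probes matched the current gene table.

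The 2 groups were fitted in limma (version 3.58.1, R 4.3.3) by lmFit and eBayes without a block, p values were adjusted over 45281 probes, and the procedure was tested on simulated data. A gene counts as called at an adjusted p under 0.05. Where all arrays of 1 group were under 7 the fold was computed against 7 as a lower bound, and genes with both group means under 7 have no fold. For Itga9, with a control mean under 7, the fold was left out as well. By rule, values in every muscle are given for members that passed, for the fibre set, and for Itgb2 and Itgam. From the partner lists the genes with the smallest adjusted p are given in the same way, 4 integrin partners and 2 basement membrane partners. Values of other members and partners, and the marker genes named, were chosen after they were seen. By the study's methods the 2 vectors went into opposite legs, so muscles of a group would come from separate mice, paired across groups. The labels do not give the pairs, so the fit is unpaired and p values measure only the spread between these samples. The members and lists were chosen with earlier results of these data known. Alternatives were the probe choice, the replicate block, the variance estimate, a filter on dim probes, recentring, a minimum change, another limit and leaving out each array. The number of arrays limits the precision.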

Additional observations from a re-analysis of the deposited data

How the results depend on the processing

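Itgb6 stayed higher and past the threshold under every alternative run. The counts of called integrin and laminin genes were small and moved more easily, from 2 higher and 1 lower. There was 1 higher gene with all probes of a gene averaged, 1 with the replicate block and 1 with a limit of 7.5, where Itga9 falls just short. There were 2 lower genes with all probes averaged, 2 with the probe of the smallest p and 2 with dim probes left out. There were 3 with the mean of probes at 7 or more, which was added after seeing the data. No gene was lower (0) with the replicate block or with a minimum log2 change of 0.5. Leaving out single arrays gave 1 to 2 higher and 0 to 2 lower genes. Same-numbered muscles did not deviate together (correlations of -0.182, 0.0509 and -0.123 across probes), and the labels name no mouse, so replicate numbers were taken as names only. With the replicate number as a block, Itgb6 had an adjusted p of 0.00208, Itga9 0.155 and Lama5 0.0877, and over all genes above background the calls were 1253, against 1709 without it. With a minimum log2 change of 0.5 they were 631.

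Genes with changes near 0 crossed it. Over the fits that leave out 1 array, Itga7 ran from -0.16 to 0.0017, Itgb1 from -0.038 to 0.052 and Lama2 from -0.045 to 0.075. Lama2 was at -0.0033 with all probes averaged and -0.027 with the probe of the smallest p. Averaged over all its probes, Itga9 was at 0.16 on the log2 scale (adjusted p = 0.0542), a mean that includes its 2 dim probes. Signals close to 7 limit what can be said of Itga1, Itga3, Itgae, Itgav and Itga9.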

Other observations

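Ligands of the receptors that contain the β6 and α9 chains were looked up after the Itgb6 and Itga9 values were seen, and carry no weight as a list. Among the 6 measured there were 2 higher genes and 1 lower gene, against 9.44% of all genes called. All 6 were above background, where 24.4% of genes were called. Tgfb3, a TGF-β whose latency peptide holds an RGD motif, gave log2 signals of 9.08, 9.25 and 9.28 with AAV8-Prox1 and 8.73, 8.73 and 8.76 in controls (log2 fold change 0.46, adjusted p = 0.00314 from limma). Tgfb1 gave 7.5, 8.14 and 8.06 with AAV8-Prox1 and 7.07, 7.16 and 7.17 in controls (log2 fold change 0.77, adjusted p = 0.0268). Both genes had every AAV8-Prox1 muscle above every control. Tgfb3 passed in all 6 fits that leave out 1 array. Tgfb1 passed in 1, without AAV8-Prox1 replicate 1 (adjusted p = 0.00046), and failed without AAV8-Prox1 replicate 2 (0.0826) or 3 (0.0859) and without control replicate 1 (0.0808), 2 (0.0688) or 3 (0.0804).

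Emilin1, a matrix ligand of the α9 chain, gave 6.81, 6.85 and 6.81 with AAV8-Prox1 and 6.99, 7.13 and 7.04 in controls, at least 1.04-fold lower (adjusted p = 0.0227). It passed in 2 of the 6 fits that leave out 1 array and failed without AAV8-Prox1 replicate 1 (0.079), 2 (0.0603) or 3 (0.0756) or control replicate 3 (0.0653). Fibronectin (Fn1) gave 8.08, 8.34 and 8.02 with AAV8-Prox1 and 8.05, 7.26 and 7.78 in controls (log2 fold change 0.45, adjusted p = 0.294). Tnc and Vcam1 had log2 fold changes of -0.06 (adjusted p = 0.746) and 0.19 (adjusted p = 0.191).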
